A study of Mus musculus with 2 samples.

Results

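Rab GTPases and the proteins that act on them were examined in mouse colon epithelial cells, in a comparison of 1 array of MIF-incubated cells with 1 array of PBS-incubated cells. The members were the genes whose single symbol in the platform annotation is Rab followed by a number and optional letters, or begins with Rabgap, Rabep, Rabif, Rabac, Rabggt or Tbc1d. They came to 71 of the 8721 named genes of the table, measured by 123 probe sets, and where a gene had several probe sets the one with the greatest mean of its log2 signals stood for it. Of these, 45 were Rab GTPases, 16 were TBC domain proteins or named Rab GTPase-activating proteins, 4 served prenylation or accessory steps and 3 were effectors. The remaining 3 follow the letters of the rule without being Rab GTPases. These were Rab3ip, an exchange factor that activates Rab8, Rab5if, and Rab26os, an opposite-strand transcript.

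The epithelial cells of both groups came from C57BL/6 mice, a common inbred strain, that were 7 weeks old. One group was incubated with MIF, taken here to be the cytokine macrophage migration inhibitory factor, and the other with PBS, a buffered salt solution. The sources used here give neither the dose or length of incubation nor the number of animals or the isolation of the cells. With 1 array per group there is no spread between samples, so every difference below is a description of these arrays and none has a test.

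Rab GTPases are small switch proteins that mark the membranes of the cell, each on its own set of vesicles or organelles, and in the form bound to GTP they recruit effectors that move, tether and fuse those membranes. Exchange factors load them with GTP, and GTPase-activating proteins, most of which carry a TBC domain, return them to the inactive form. Prenylation by the Rab geranylgeranyl transferase anchors them in membranes. In a polarised epithelium such as that of the colon, they direct apical and basolateral delivery, recycling, transcytosis, lysosomal degradation and the release of secretory granules.

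The signals are the authors' processed values on a linear scale. Signals under a floor of 232, the 40th percentile of both arrays, were raised to it and a gene with both signals under it was not assessed. Each difference is the log2 signal of the MIF array less that of the PBS array. Median signals were 346 on the MIF array and 337 on the PBS array. All 12 epithelial markers examined, among them Epcam and Krt8, were above the floor on both arrays. Their summed signal was 96891 on the MIF array and 101550 on the PBS array. The marker lists of other cells were mostly under the floor. Among the 6 T and NK cell markers measured, 2 were assessed, and the 6 had a summed signal of 917 on the MIF array and 1690 on the PBS array. Most of both sums came from the 2 assessed, the granzyme genes Gzma and Gzmb. Gzma had 403 on the MIF array and 813 on the PBS array, and Gzmb had 282 on the MIF array and 541 on the PBS array. Of 9 fibroblast markers 3 were assessed, with sums of 2021 on the MIF array and 820 on the PBS array over the 9. Of 7 myeloid markers 2 were assessed. Cd14 had 1307 on the MIF array and 1318 on the PBS array, and Lyz2 had 243 on the MIF array and 188, under the floor, on the PBS array. The endothelial, smooth muscle and B and plasma cell markers in the table (3, 1 and 1) were all under the floor. The part of these cells in the differences below was not tested, and in bulk RNA fewer cells of a type and less RNA per cell cannot be told apart.

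Of the 71 members, 48 were assessed, 47 of them above the floor on both arrays and 1 on the PBS array alone. The assessed share was 67.6% for the members and 66.9% for all named genes. The members as a whole had nearly equal signals on the MIF and PBS arrays, with a median log2 difference of -0.0049, against -0.011 over all 5837 assessed genes. At 1.5-fold, Tbc1d13 was lower on the MIF array and no member was higher, where 0.463% of all assessed genes were lower and 0.634% higher. At 1.2-fold, 4 members (8.33%) were lower and 4 (8.33%) higher, where 6.29% and 6.82% of all assessed genes were. After median centring or quantile normalization this split was 5 lower and 3 higher. Over all genes, 8.74% were then lower and 5.16% higher with median centring, and 7.25% and 6.00% with quantile normalization. The member shares are near those of all genes in each of these settings. The member differences had an SD of 0.22 across the 47 genes above the floor on both arrays, which are not replicates, against 0.19 over all such genes.

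**Figure D1:**
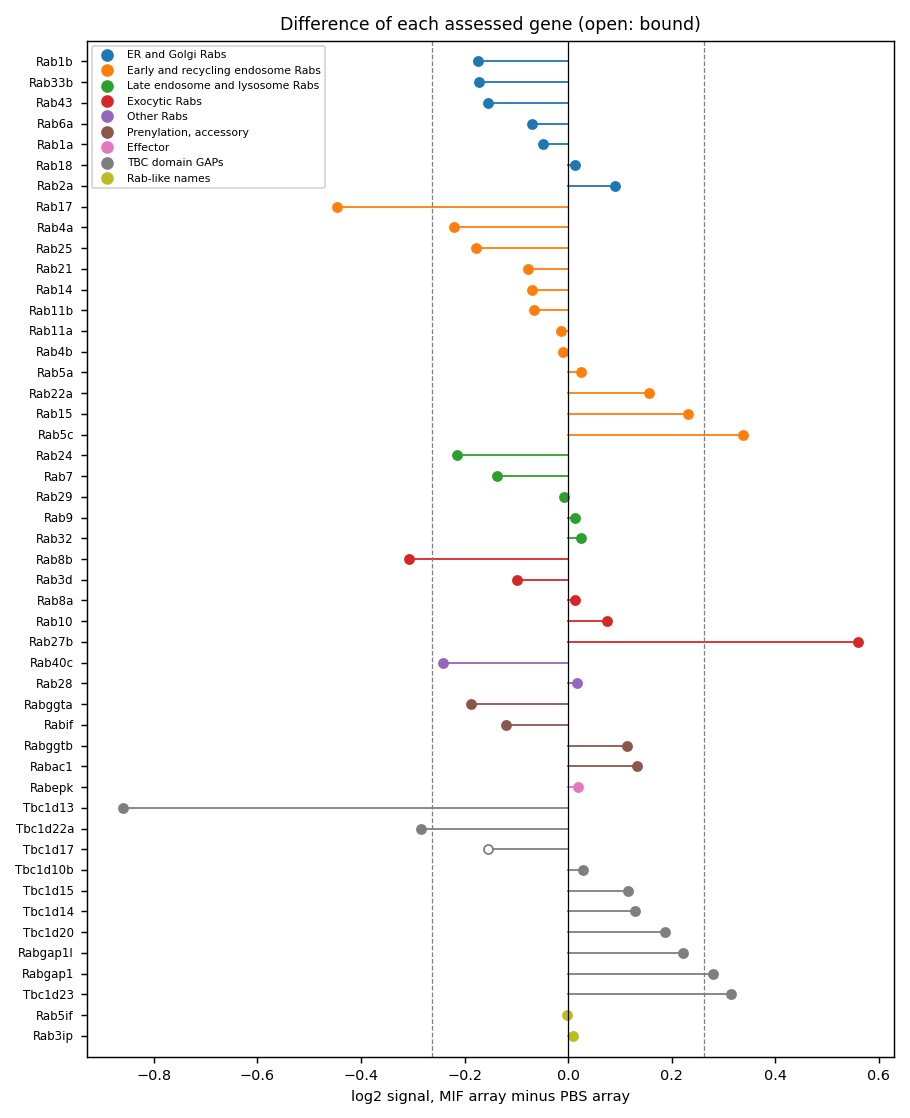
The log2 difference in signal, MIF minus PBS, of the 48 assessed members, one gene a line and coloured by role; dashed lines mark 1.2-fold and the open point is a bound. Most genes lie between the dashed lines, with Tbc1d13 at -0.86 and Rab27b at 0.56 at the ends.

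The promoters of 3 members that lay far from equal signals are shown. They are Tbc1d13 and Rab17, the members with the lowest differences, and Rab5c, which had the second highest. Each sequence is the 250 bases before the annotated start, 5′ to 3′ on the strand of the gene, from RefSeq on the build GRCm38.p6. A window was found for 62 of the 71 members. There were 85 member windows, so some members have more than 1, and 1 is shown for each of these 3 genes. Tbc1d13 lies at chr2:30133496-30133745 on the plus strand, Rab17 at chr1:90967668-90967917 on the minus strand and Rab5c at chr11:100738216-100738465 on the minus strand. Capitals mark matches, on either strand, to the letters searched.
Tbc1d13: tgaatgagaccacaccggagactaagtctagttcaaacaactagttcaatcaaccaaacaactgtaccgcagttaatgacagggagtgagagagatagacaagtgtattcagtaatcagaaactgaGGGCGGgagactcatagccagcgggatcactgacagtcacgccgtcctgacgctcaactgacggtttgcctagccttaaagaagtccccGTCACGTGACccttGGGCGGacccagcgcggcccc
Rab17: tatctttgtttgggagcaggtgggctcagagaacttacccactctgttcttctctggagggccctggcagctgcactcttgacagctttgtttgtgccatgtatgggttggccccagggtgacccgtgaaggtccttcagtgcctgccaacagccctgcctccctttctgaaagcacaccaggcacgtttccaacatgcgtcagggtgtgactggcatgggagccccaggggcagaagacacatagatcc
Rab5c: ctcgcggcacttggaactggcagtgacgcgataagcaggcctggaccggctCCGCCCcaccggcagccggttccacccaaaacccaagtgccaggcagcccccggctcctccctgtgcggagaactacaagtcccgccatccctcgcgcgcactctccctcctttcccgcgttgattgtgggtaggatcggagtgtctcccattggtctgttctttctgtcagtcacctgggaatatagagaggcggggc

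The letters searched were the E-box CACGTG, the same E-box extended by GT before it and AC after it (the CLEAR element, known from promoters of lysosomal genes), the GC box GGGCGG, the cyclic AMP element TGACGTCA, the AP-1 site TGANTCA, the interferon gamma-activated site TTCNNNGAA and the TATA box TATAAA. The Tbc1d13 window held the CLEAR element, which contains the E-box, 35 bases before the start, and GC boxes 124 and 21 bases before it. The Rab5c window held 1 GC box on the opposite strand, 199 bases before the start, and the Rab17 window held none of these letters. The CLEAR element was in 0.240% of all 32851 windows of this length in the RefSeq table and in 0.513% of those of the genes on the array. Among the 85 member windows it was in 3 (3.53%), also those of Rab21 and Rab5a, whose differences were -0.077 and 0.026. It was added to the search after the Tbc1d13 sequence had been seen, so the member share is not a test. The E-box was in 6.02% of all windows, the GC box in 32.7%, the cyclic AMP element in 1.55%, the AP-1 site in 6.75%, the interferon gamma-activated site in 7.02% and the TATA box in 12.4%. Among the windows of genes on the array, the GC box was in 57.1%, the E-box in 8.35% and the TATA box in 7.06%. A match describes these letters only.

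The TBC domain and Rabgap genes held the lowest member. Of 16 genes, 10 were assessed, 7 of them higher and 3 lower on the MIF array by the representing probe sets. Their median log2 difference was 0.12 and lay between 0.066 and 0.16 in the other settings, which all use the same arrays. The 7 higher genes include Tbc1d10b, at 0.028, and Tbc1d15, whose probe sets had opposite signs. Over all 5837 assessed genes 2728 were higher and 3109 lower, with a median of -0.011. Tbc1d13, which acts on Rab35 and on glucose transporter traffic in adipocytes, had a signal of 505 on the MIF array and 916 on the PBS array. It was 1.81-fold lower on the MIF array, the 13th lowest of all 5837 assessed genes, and rested on a single probe set. Its value ranged from -0.90 to -0.86 over the other settings tried. Only median centring, quantile normalization and trend removal could change this value, since the probe set was above every floor tried.

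Tbc1d22a, another TBC domain protein, had a signal of 379 on the MIF array and 462 on the PBS array, 1.22-fold lower. Its probe set can detect several transcripts, and a second one, under the floor on both arrays, read 138 on the MIF array and 182 on the PBS array. Tbc1d17 was at 196 on the MIF array, under the floor, and at 258 on the PBS array, so it was at least 1.11-fold lower. Tbc1d13, Tbc1d22a and Tbc1d17 were the only TBC domain and Rabgap genes that were lower among the 10 assessed.

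On the other side, Tbc1d23, a TBC protein that links endosome-derived vesicles to golgins of the trans-Golgi, had 430 on the MIF array and 346 on the PBS array, 1.24-fold higher. Its second probe set was at 295 on the MIF array and at 224, under the floor, on the PBS array. Rabgap1, a GTPase-activating protein first described at the centrosome, had 388 on the MIF array and 320 on the PBS array, 1.21-fold higher. After median centring or quantile normalization its difference was 0.24, under 1.2-fold. Rabgap1l, its paralogue, had 521 on the MIF array and 446 on the PBS array, a log2 difference of 0.22.

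Tbc1d20, which inactivates Rab1 at the endoplasmic reticulum, had 701 on the MIF array and 616 on the PBS array, a difference of 0.19, and a second probe set gave 0.35. Its substrates Rab1a and Rab1b differed by -0.049 and -0.17, but a second probe set of Rab1a gave 0.099, so no direction can be given for Rab1a. Tbc1d15, which acts on Rab7, differed by 0.12 with 1106 on the MIF array and 1021 on the PBS array, and its other probe sets gave 0.21 and -0.020, so no direction can be given. Tbc1d14, which binds Rab11 and regulates autophagy, had 709 on the MIF array and 648 on the PBS array, a difference of 0.13 from a probe set that can detect several transcripts. Its second probe set, under the floor, read 132 on the MIF array and 85.8 on the PBS array, and the mean of both probe sets gave 0.38. Tbc1d10b differed by 0.028. The other 6 genes, Tbc1d1, Tbc1d8, Tbc1d8b, Tbc1d10a, Tbc1d19 and Tbc1d24, were under the floor on both arrays.

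**Figure D2:**
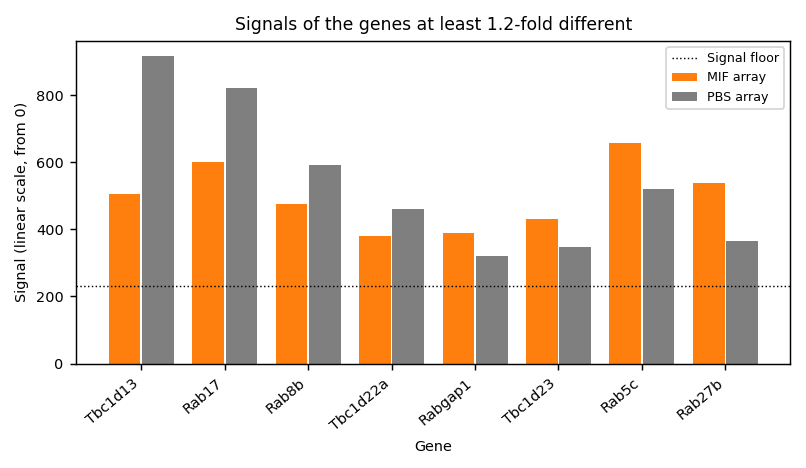
Signals on the MIF array (left bar) and the PBS array (right bar) of the 8 members at least 1.2-fold different, 1 array each, ordered from the lowest to the highest difference; the dotted line is the floor of 232. The bars of Tbc1d13 stand at 505 on the MIF array and 916 on the PBS array, and those of Rab27b at 538 on the MIF array and 365 on the PBS array.

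Among the Rabs of early and recycling endosomes, 12 of 14 genes were assessed, with a median of -0.039, 8 lower and 4 higher on the MIF array by the representing probe sets. With averaged probe sets this median was 0.0078, so no direction can be given for the group. Rab17, which is found in polarised epithelia and acts in transcytosis and apical recycling, had 601 on the MIF array and 820 on the PBS array. It was 1.36-fold lower, and its second probe set, under the floor, read 162 on the MIF array and 183 on the PBS array. Rab5c, 1 of 3 isoforms that drive the fusion of early endosomes, went the other way with 657 on the MIF array and 520 on the PBS array, 1.26-fold higher on a single probe set. Its isoform Rab5a differed by 0.026, at 1893 on the MIF array and 1859 on the PBS array, and Rab5b was under the floor on both arrays.

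Rab11a, of apical recycling, had 4414 on the MIF array and 4454 on the PBS array, a difference of -0.013, and its second probe set gave 0.14. Rab11b differed by -0.066. Rab25, the epithelial relative of Rab11, had 2184 on the MIF array and 2470 on the PBS array, a difference of -0.18 on its single probe set. Rab4a, of the fast recycling route, had 612 on the MIF array and 713 on the PBS array, a difference of -0.22. That probe set can detect several transcripts, and a second one gave -0.064. The paralogue Rab4b differed by -0.0100.

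Rab14, which shuttles between the Golgi and endosomes, had 3483 on the MIF array and 3656 on the PBS array, from a probe set that can detect several transcripts. Its 5 probe sets above the floor spanned -0.13 to 0.10. Rab22a, of early endosomes, had 620 on the MIF array and 556 on the PBS array, a difference of 0.16, but a second probe set read 359 on the MIF array and 451 on the PBS array, a difference of -0.33. No direction can be given for these 2 genes. Rab15, which slows early endocytic traffic, had 648 on the MIF array and 552 on the PBS array, a difference of 0.23, and Rab21, of integrin traffic, differed by -0.077. Rab31 was under the floor on both arrays.

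The Rabs of secretory granules and polarised exocytosis included the highest member. Of 9 genes, 5 were assessed, with a median of 0.014. Rab27b, which docks secretory granules and exosome-bearing compartments at the plasma membrane, had 538 on the MIF array and 365 on the PBS array. It was 1.47-fold higher, the 45th highest of all assessed genes, just under 1.5-fold. A second probe set, under the floor, read 175 on the MIF array and 129 on the PBS array, and a floor at the 60th percentile left a bound of 0.11 for the difference. Its paralogue Rab27a was under the floor on both arrays. Of the 7 goblet cell markers examined, all were above the floor and 6 were higher on the MIF array, with a summed signal of 43610 on the MIF array and 40379 on the PBS array. Creb3l1 was 1.47-fold higher, Clca1 1.42-fold and Spdef 1.36-fold, and the other 4 lay within 1.2-fold. The part of goblet cells in the Rab27b difference was not tested.

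Rab8b, of apical and ciliary delivery, had 477 on the MIF array and 590 on the PBS array, 1.24-fold lower on its single probe set. Its paralogue Rab8a, which carries apical proteins in the mouse intestine, had nearly equal signals of 1783 on the MIF array and 1765 on the PBS array. Rab10, of basolateral delivery, had 2293 on the MIF array and 2176 on the PBS array, and its 3 probe sets gave 0.075, 0.061 and 0.20. Rab3d, of secretory granules, had 930 on the MIF array and 997 on the PBS array, a difference of -0.099. Its other probe sets gave 0.31 and 0.042, so no direction can be given. Rab3a, Rab3b, Rab13 and Rab27a were under the floor on both arrays.

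The Rabs of the endoplasmic reticulum and Golgi had an SD of 0.10 across genes, and those of late endosomes and lysosomes had one of 0.11. Of 8 genes, 7 were assessed, all within 1.2-fold, with a median of -0.071, 5 lower and 2 higher on the MIF array by the representing probe sets. With averaged probe sets this median was 0.025, so no direction can be given for the group. Rab1a, of transport from the endoplasmic reticulum to the Golgi, had 7752 on the MIF array and 8017 on the PBS array, a difference of -0.049, with 0.099 on a second probe set. Rab2a, of traffic at the Golgi and of lysosome fusion, had 3631 on the MIF array and 3411 on the PBS array, and its 3 probe sets above the floor gave 0.057 to 0.15. Rab6a, of Golgi-derived transport, had 2632 on the MIF array and 2764 on the PBS array, with -0.071 on this probe set and 0.18 on another, so no direction can be given. Rab1b, Rab33b, which recruits autophagy proteins, and the Golgi Rab43 differed by -0.17, -0.17 and -0.15. Rab18, of lipid droplets and the endoplasmic reticulum, had 2399 on the MIF array and 2376 on the PBS array, a difference of 0.014, although a second probe set at 1294 on the MIF array and 978 on the PBS array gave 0.40. Rab2b was under the floor.

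Of the 10 Rabs of late endosomes, lysosomes and related organelles, 5 were assessed, all within 1.2-fold, with a median of -0.0074. Rab7, which directs the fusion of late endosomes with lysosomes, had 2797 on the MIF array and 3074 on the PBS array, a difference of -0.14, but its second probe set gave 0.12 and no direction can be given. Rab24, linked to autophagy, had 631 on the MIF array and 732 on the PBS array, a difference of -0.22, and its second probe set gave -0.14. Rab9, of the route from late endosomes to the trans-Golgi, had 1111 on the MIF array and 1102 on the PBS array. Rab29 and Rab32, of lysosome-related organelles, differed by -0.0074 and 0.024. Rab7b, Rab12, Rab20, Rab34 and Rab38 were under the floor on both arrays.

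Of the other Rabs, Rab40c, part of a ubiquitin ligase, had 548 on the MIF array and 648 on the PBS array, a difference of -0.24. Its second probe set, under the floor, read 137 on the MIF array and 135 on the PBS array, and the mean of both probe sets gave -0.11. Rab28, of cilia, had 595 on the MIF array and 588 on the PBS array, with 0.017 on this probe set and 0.34 on a second. Rab23, an inhibitor of Hedgehog signalling, and Rab40b were under the floor on both arrays. Rab3ip had 599 on the MIF array and 595 on the PBS array, and Rab5if 3795 on the MIF array and 3801 on the PBS array.

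All 4 genes of prenylation and accessory steps were assessed and lay within 1.2-fold. The geranylgeranyl transferase subunits differed in opposite directions, Rabggta by -0.19, at 290.3 on the MIF array and 331 on the PBS array, and Rabggtb by 0.11, at 962 on the MIF array and 889 on the PBS array. Rabif, a chaperone of nucleotide-free Rabs, had 550 on the MIF array and 598 on the PBS array, a difference of -0.12. Its probe set can detect several transcripts. Rabac1, a membrane receptor of prenylated Rabs, had 809 on the MIF array and 738 on the PBS array, a difference of 0.13. Of the effectors, Rabepk, which binds Rab9, was just above the floor with 238 on the MIF array and 235 on the PBS array, and Rabep1 and Rabep2, which bind Rab5, were under it.

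The 8 members at least 1.2-fold different all had a mean signal under 1000, a split chosen after the values were seen. Of 31 assessed members under it, 8 (25.8%) were at least 1.2-fold different, and of 17 at or over it none was. Over all assessed genes the shares were 15.2% of 3582 under it and 9.80% of 2255 at or over it. Among the 17 members at or over it, which include Rab1a, Rab11a, Rab14 and Rab7, the differences ran from -0.18 to 0.12.

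**Figure D3:**
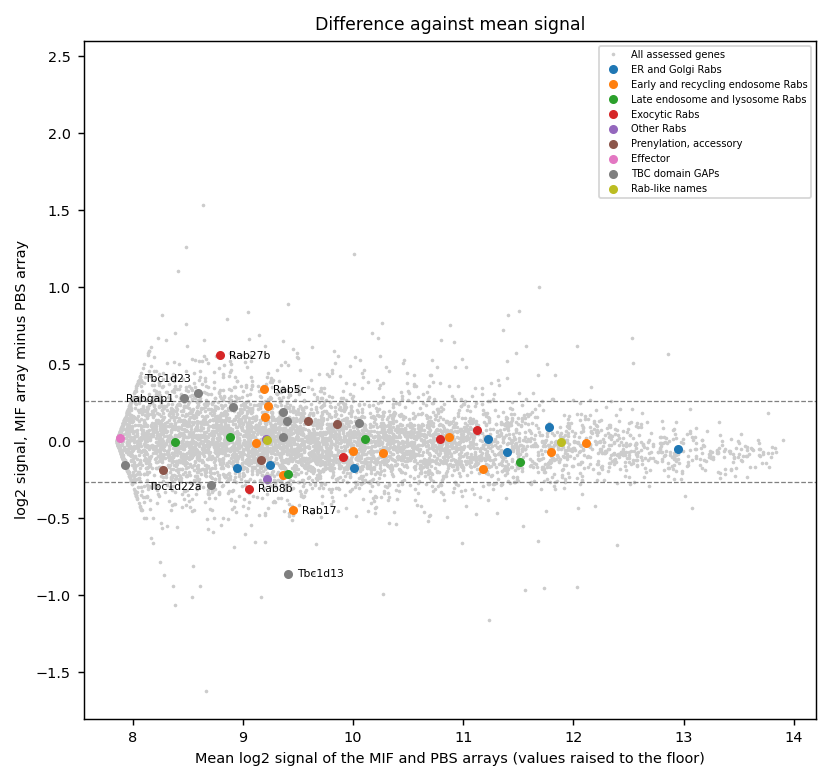
The log2 difference in signal, MIF array minus PBS array, against the mean log2 signal of both arrays, with all 5837 assessed genes in grey, the members coloured by role and dashed lines at 1.2-fold. The members labelled in the plot, those at least 1.2-fold different, run from Tbc1d13 at -0.86 to Rab27b at 0.56 and lie in the lower part of the signal range.

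Separate probe sets of a gene, which share the RNA and the array, gave a measure of error within the arrays. Over 15 members with at least 2 probe sets that passed the floor on each array, the SD within a gene was 0.16 on the log2 scale, against 0.15 over 1800 such genes of the table. All probe sets went in one direction for 7 of the 15 members (46.7%) and for 57.8% of the 1800 genes. The 7 were Rab2a, Rab4a, Rab10, Rab18, Rab24, Rab28 and Tbc1d20. Of the 48 assessed members, 21 (43.8%) differed by more than the SD of 0.15, against 36.2% of all assessed genes. For none of the 8 members past 1.2-fold did a second probe set pass the floor on the MIF and PBS arrays alike. The second probe sets of Rab17, Rab27b, Rabgap1, Tbc1d22a and Tbc1d23 had the sign of the first but were under the floor on at least 1 array, and Tbc1d13, Rab5c and Rab8b had a single probe set.

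**Figure D4:**
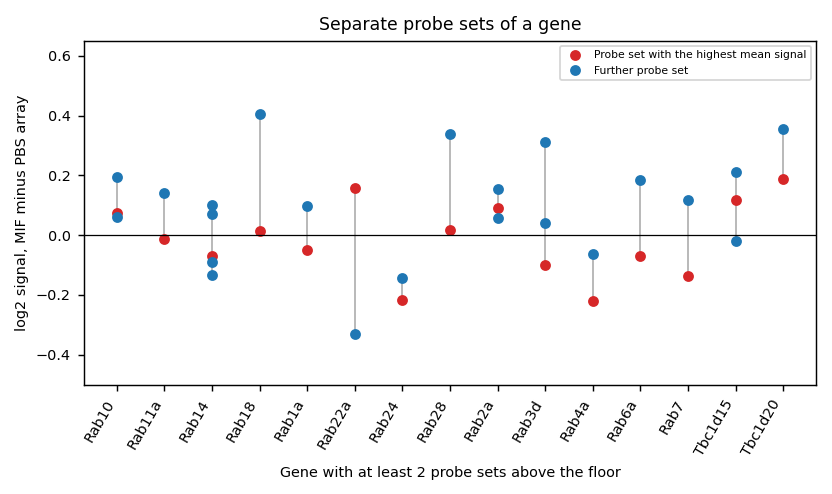
The log2 difference in signal, MIF array minus PBS array, of each probe set that passed the floor on each array, for the 15 members with at least 2 of them; red points are the probe sets that represent the gene. Rab22a spans the widest range, from -0.33 to 0.16, and 8 genes have points on both sides of 0.

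Other genes of the pathway were taken from lists made from general knowledge, with 60 of 122 genes in the table and 42 assessed. Their median difference was 0.012, with none at 1.5-fold, 1 lower and 2 higher at 1.2-fold. Over all assessed genes 0.463% were lower and 0.634% higher at 1.5-fold, and 6.29% and 6.82% at 1.2-fold. Of the exchange factors, 14 were assessed, with a median of -0.025. Dennd6a, which activates Rab14, had 405 on the MIF array and 323 on the PBS array, 1.25-fold higher, followed by Dennd2d at 0.22 and Trappc10, of a TRAPP complex, at 0.13. The lowest were the TRAPP subunits Trappc6a, Trappc4 and Trappc3, at -0.22, -0.12 and -0.11.

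Of the other effectors, 24 were assessed, with a median of 0.025. Myo5c, an epithelial class V myosin of secretory granules, had 744 on the MIF array and 594 on the PBS array, 1.25-fold higher. Sytl2, an effector of Rab27, differed by 0.23, and the exocyst subunit Exoc6 by 0.21. Plin3, a lipid droplet protein that also binds Rab9, had 1089 on the MIF array and 1319 on the PBS array, 1.21-fold lower, and the dynein subunit Dync1li1 and Rilpl2, which binds phosphorylated Rabs, followed at -0.18 and -0.17. Of the proteins that keep Rabs soluble, Gdi2, which extracts inactive Rabs from membranes, had 7428 on the MIF array and 8048 on the PBS array, a difference of -0.12, and Chm, the escort protein for prenylation, had 414 on the MIF array and 354 on the PBS array, a difference of 0.22. The TBC proteins outside the rule, Evi5 and Grtp1, differed by -0.066 and 0.033.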

How the data were processed

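RNA of colon epithelial cells was labelled as biotinylated cRNA by the Affymetrix protocol, per the labels' protocols. The deposited signal intensity of each probe set is on a linear scale, as the range of the values shows. How the authors summarised probes and scaled the arrays is not given in the sources used here. Of 15340 probe sets, 61 controls were left out, and names came from the platform annotation, with 14049 probe sets having 1 symbol, 490 several and 740 none. The column medians differed by 0.037 on the log2 scale, under the limit of 0.1, so the columns were used as deposited. The floor, thresholds of 1.5-fold and 1.2-fold, and the counts beside all assessed genes are as given in the text. Named genes were the members past 1.2-fold, the 3 of highest mean signal in each role, those with opposed probe sets at least 0.2 apart, and the 3 largest differences in each direction of each pathway list; other members are given so that all 71 are accounted for. Members and lists were chosen with earlier results of these data known. Simulated data with planted differences were used to check the steps. The planted differences were larger than those of the assessed members and lay in genes far above the floor. They were therefore no check of differences of the size and signal reported here. With 1 array per group, the number of arrays limits the precision. Alternatives were other scalings, floors, probe set choices, trend removal with a loess span of 0.3, and memberships. The tools were pandas 2.3.3, numpy 2.4.6, matplotlib 3.10.9 and statsmodels 0.14.6 under Python 3.11.15.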

Additional observations from a re-analysis of the deposited data

How the results depend on the processing

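No paired analysis was possible because each group has 1 array. The median difference of the members lay between -0.042 and 0.021 over all settings, its sign changing between them. Tbc1d13 was the only member at least 1.5-fold lower, and none was 1.5-fold higher, in every setting but that with no floor, which gave 2 lower and 4 higher at 1.5-fold and 7 lower and 11 higher at 1.2-fold, among 71 genes. Over all genes without a floor, 2.27% were lower and 5.22% higher at 1.5-fold, and 10.3% and 15.6% at 1.2-fold. There the additional gene at 1.5-fold lower was Rab3a (68.2 on the MIF array and 118 on the PBS array), and the 4 higher were Rab3b (93.6 on the MIF array and 35.5 on the PBS array), Tbc1d8 (104 on the MIF array and 58.9 on the PBS array), Tbc1d19 (119 on the MIF array and 72.2 on the PBS array) and Rab34 (21.4 on the MIF array and 13.7 on the PBS array), all under the floor used. With the floor at the 60th percentile 2 members were lower and 1 higher at 1.2-fold, among 40, against 5.49% and 4.94% of all genes. The median of the other Rabs, over 2 genes, was -0.11, against 0.042 with no floor (4 genes) and 0.034 with averaged probe sets. The role medians other than that of the TBC domain and Rabgap genes all changed sign in at least 1 setting. Tbc1d13, Rab17 and Rab5c passed 1.2-fold in all 10 alternatives, and Rabgap1 in 6. Tbc1d13 and Rab5c have a single probe set that was above every floor tried. Only the scalings and the trend removal could change their values, so the remaining alternatives were no check of these 2 genes. The representing probe set of Rab17 was also above every floor tried. Only the scalings, the trend removal and the averaging of probe sets could change its value, and the remaining alternatives were no check of it. Of the genes named, none past 1.2-fold reversed. Averaging probe sets moved 5 of 29 genes by over 0.15, the SD of probe sets of a gene, Rab22a to -0.11, Rab27b to 0.40, Rab28 to 0.18, Rab3d to 0.15 and Tbc1d14 to 0.38. No member had a probe set with several symbols, so that alternative gave no value. Leaving out Rab3ip, Rab5if and Rab26os, chosen after the data were seen, gave the same counts at 1.2-fold and 1.5-fold. It could not change them, since Rab3ip and Rab5if had nearly equal signals and Rab26os was under the floor on both arrays. The cause of these changes was not tested beyond the number of genes each setting assessed.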
